A study of Mus musculus with 61 samples.

Results

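The bed nucleus of the stria terminalis (bnst) and the hippocampus were compared on 25 of the 61 arrays of the study, 13 of the bnst and 12 of the hippocampus, taken by the region named in the sample labels. The mice were male and wild type, were 8 weeks old, and belonged to 6 inbred strains, FVB/NJ, DBA/2J, C57BL/6J, 129S6/SvEvTac, C3H/HeJ and A/J. The labels name no treatment. Each strain had 2 arrays for each region, except C3H/HeJ, which had 3 of the bnst. A bnst array held pooled tissue of 2 or 3 mice and a hippocampus array tissue of 1 mouse. By the methods of the study the hippocampus was frozen directly on dry ice and the smaller structures were collected in RNA Later, whereas the labels describe all samples as snap frozen, so that collection, pooling and region cannot be told apart. The Affymetrix mouse genome 430 2.0 array reports each transcript by a probe set, a group of short oligonucleotides, and the deposited signal is a background-corrected intensity on a linear scale. Mean signals per array lay between 180.5 and 200.5 in the bnst and between 186.7 and 196.4 in the hippocampus. Both A/J replicate 2 arrays correlated least with the other arrays of their region, with mean correlations of 0.941 in the bnst and 0.951 in the hippocampus.

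The bnst is a cluster of small nuclei at the front end of the stria terminalis, the fibre tract that links the amygdala with the hypothalamus. Most of its neurons release GABA, many of them together with a neuropeptide, and it is known for roles in anxiety, stress responses and social behaviour. The hippocampus is a cortical structure that is built mainly of glutamatergic pyramidal and granule cells and is known for its role in memory. The bnst borders the hypothalamus, the thalamus, the striatum and the ventricles, so that markers of these neighbours were counted beside the results. In whole tissue a lower signal can come from fewer cells of a type or from less RNA per cell, and these cannot be told apart.

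Regional differences were numerous. Of 42803 probe sets tested, 7854 (18.3%) were called higher in the bnst and 6723 (15.7%) lower at a Benjamini-Hochberg adjusted p under 0.05, from a limma fit of log2 signal on region with strain as a block. A difference above 2-fold as well was found for 900 probe sets (2.1%) higher and 1110 (2.59%) lower in the bnst. In 2777 probe sets (6.49%) no bnst array overlapped any hippocampus array. When each gene was given by 1 probe set, 4364 (24.8%) of 17583 genes were higher and 2944 (16.7%) were lower in the bnst. In all values below, a positive log2 difference means a higher signal in the bnst, and values under the floor of 12.8 were raised to it before the logarithm, so that a difference from a region at the floor is a lower bound.

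**Figure D1:**
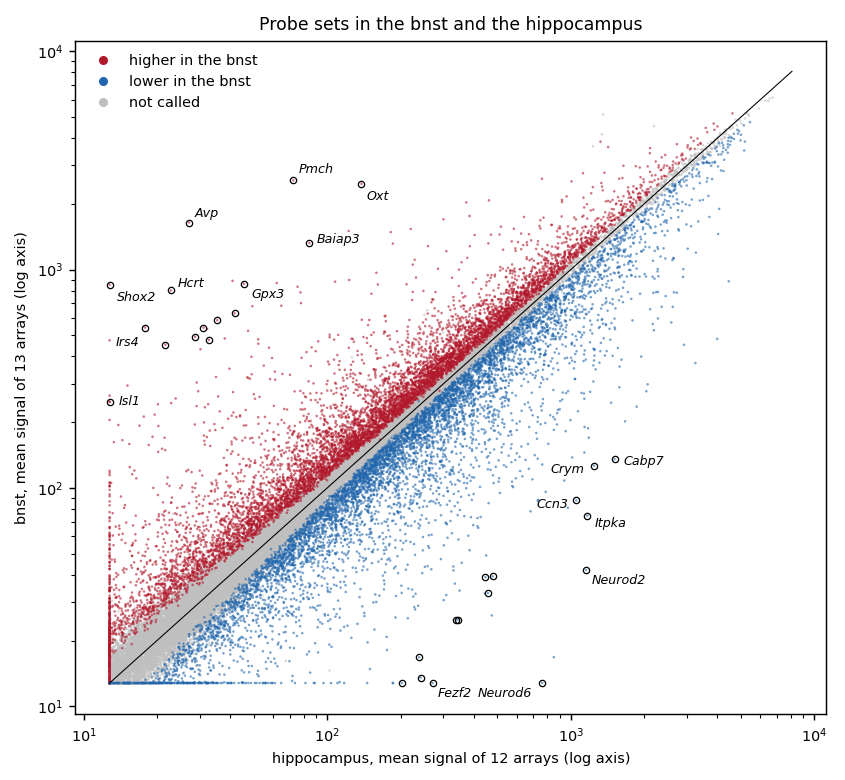
Mean signal of each probe set in the hippocampus (12 arrays, x axis) and the bnst (13 arrays, y axis), both on log axes with means under the floor drawn at it. Colours mark the 7854 probe sets called higher and the 6723 called lower in the bnst, and rings mark the 15 leading genes in each direction, which lie far from the diagonal of equal signal.

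The genes with the largest differences toward the bnst were led by neuropeptide precursors. Avp, the precursor of the hormone vasopressin, had signals of 804 to 2167 with a median of 1649 in the bnst and of 6.75 to 42.7 with a median of 29.3 in the hippocampus. Every bnst array was above every hippocampus array, and the log2 difference was 5.95 ± 0.20 (SE, adjusted p = 2.29e-16). Pmch, which encodes melanin-concentrating hormone, reached 1520 to 4181 (median 2439) in the bnst and 23.6 to 116 (median 76.2) in the hippocampus, a log2 difference of 5.20 ± 0.17. Hcrt, the precursor of the wake-promoting orexins, ranged from 342 to 1702 (median 641) in the bnst and from 2.4 to 39.6 (median 22.6) in the hippocampus. Its log2 difference was 4.98 ± 0.21, and its groups did not overlap either. Oxt, which encodes oxytocin, lay at 1776 to 3200 (median 2425) in the bnst and at 98.6 to 169 (median 133) in the hippocampus, a log2 difference of 4.16 ± 0.08. Gal, the precursor of galanin, differed by 4.38 ± 0.18 and Cartpt, the CART peptide precursor, by 4.12 ± 0.16 on the log2 scale.

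The other leading genes toward the bnst were Shox2, Irs4, Gpx3, Isl1, Synpo2, Patj, Baiap3, AW551984 and Syt9. Shox2, a homeobox transcription factor, was at 576 to 1109 (median 843) on the bnst arrays and at -2.93 to 22.2 (median 10.5) on those of the hippocampus, where 7 of 12 arrays lay under the floor. Its log2 difference was 5.77 ± 0.12 (adjusted p = 1.44e-19). Isl1, a LIM homeobox factor of ventral forebrain neurons, lay at 172 to 359 (median 249) in the bnst and at -1.89 to 29.7 (median 2.79) in the hippocampus, and differed by 4.16 ± 0.13. Irs4, an insulin receptor substrate, differed by 4.89 ± 0.16 and Gpx3, a secreted glutathione peroxidase, by 4.23 ± 0.11. Synaptotagmin Syt9, a calcium sensor of vesicle release, differed by 3.88 ± 0.13. All 15 genes were called within each of the 6 strains, in a fit of all arrays that shared its error estimate between strains. All were also without overlap between the regions, as were 1632 (9.28%) of all genes.

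The deposited arrays of the hypothalamus and the periaqueductal gray (pag) place these levels in context. In 11 of the 15 genes the mean signal in the hypothalamus exceeded that in the bnst, as for Avp (5436 in the hypothalamus, 1642 in the bnst), Pmch (4356 and 2562) and Hcrt (1152 and 802). Shox2, Synpo2, Patj and Syt9 had higher means in the bnst than in the hypothalamus and the pag. For Shox2 the mean was 853 in the bnst, 13.3 in the hypothalamus and 320 in the pag. For Synpo2, an actin-binding protein, it was 542 in the bnst, 47.8 in the hypothalamus and 49.97 in the pag. These are levels set side by side, without a test.

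**Figure D2:**
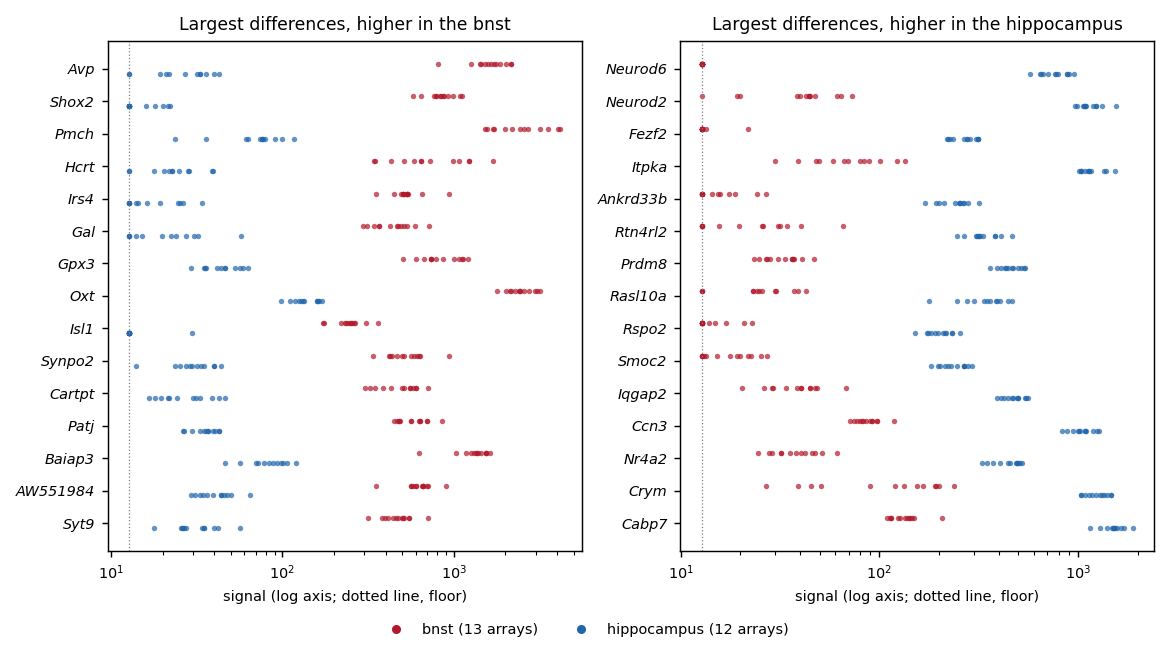
Signal on each of the 13 bnst and 12 hippocampus arrays (1 point an array, log axis, values under the floor drawn at the dotted line) for the 15 genes with the largest difference in each direction. In none of the 30 genes do the arrays of the 2 regions overlap, which is not separate support, since the genes were picked by the size of their difference.

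Toward the hippocampus, transcription factors of cortical glutamatergic neurons led. Neurod6, a basic helix-loop-helix factor of pyramidal neurons, was at 569 to 948 (median 765) in the hippocampus and at -1.08 to 10.9 (median 6.9) in the bnst, under the floor on every bnst array. Its log2 difference was -5.89 ± 0.07 (adjusted p = 4.5e-24). Neurod2, its relative, had 965 to 1541 (median 1087) in the hippocampus and 8.34 to 72.5 (median 44.1) in the bnst, a log2 difference of -4.89 ± 0.19. Fezf2, a zinc finger factor of deep-layer cortical neurons, differed by -4.33 ± 0.09. Nr4a2 and Prdm8, also transcription regulators, were among the 15, with -3.55 ± 0.12 and -3.81 ± 0.11.

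The other genes among the 15 were of varied kinds. Itpka, an inositol trisphosphate kinase of dendritic spines, was at 1013 to 1525 (median 1127) in the hippocampus and 30.01 to 135 (median 69.6) in the bnst, and differed by -4.05 ± 0.15. Rtn4rl2, a Nogo receptor relative, differed by -3.88 ± 0.24, Rasl10a, a Ras-like GTPase, by -3.79 ± 0.19, and Iqgap2, a scaffold protein, by -3.64 ± 0.12. Rspo2, an activator of Wnt signalling, and Smoc2, a matrix protein, had log2 differences of -3.79 ± 0.12 and -3.75 ± 0.14. Crym, a thyroid hormone binding protein, differed by -3.53 ± 0.24, and Cabp7, a calcium-binding protein, by -3.51 ± 0.07. Ccn3, a secreted matricellular protein, differed by -3.60 ± 0.07 and Ankrd33b, an ankyrin repeat protein, by -3.93 ± 0.12. In all 15 genes the mean signal of the hippocampus was also above those of the hypothalamus and the pag. For the 14 of the 30 leading genes that had more than 1 probe set, no other probe set was called in the opposite direction. Not all were called, however. The called probe sets were 2 of 4 for Patj, 3 of 4 for Synpo2, 2 of 3 for Neurod2, 1 of 2 for Rspo2 and 4 of 6 for Nr4a2. In the rest of these genes every probe set was called.

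Gene lists were used to describe which kinds of transcripts differed. Their members were chosen with earlier results of these data known, so the counts carry no test. The lists hold 645 tested genes. A list is described by its members called in each direction, beside the 24.8% higher and 16.7% lower among all genes. The median log2 difference of all genes was 0.04. The share of probe sets called depended on signal, with 10.3% where the higher regional mean was under 50 and 69.7% where it was 500 to 2000. A list of bright genes can thus exceed the shares of all genes, and of 16 widely expressed reference genes 5 were higher and 6 lower. Of 19 tested hippocampal and cortical transcription factors, 15 were lower in the bnst and 2 higher, with a median of -1.97. Lhx2, a LIM homeobox factor of the cortical field, was at 533 to 640 (median 575) in the hippocampus and 74.8 to 152 (median 94.5) in the bnst. The groups did not overlap, and the log2 difference was -2.55 ± 0.09. Emx2, which patterns the medial cortex, differed by -2.48 ± 0.12, and Tbr1, a T-box factor of glutamatergic neurons, by -2.12 ± 0.15. The members higher in the bnst were Lhx9 (0.64) and Nr2f1 (0.29). Prox1, which marks dentate granule cells, was not called, at -0.19 ± 0.09 (adjusted p = 0.139), though it was without 129S6/SvEvTac, at -0.31 (adjusted p = 0.00878).

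Among 24 markers of hippocampal subfields 16 were lower and 4 higher in the bnst. Fibcd1, a marker of CA1 pyramidal cells, had signals of 217 to 436 (median 311) in the hippocampus and of 27.3 to 57.8 (median 47.2) in the bnst, a log2 difference of -2.92 ± 0.13. Lct and Dsp, both used as markers of dentate granule cells, differed by -3.18 ± 0.21 and -2.80 ± 0.25. Pcp4 and Cacng5, which are used as markers of CA2 but are not particular to it, were higher in the bnst by 1.52 and 1.72. The tissue labelled hippocampus thus held most of its subfield markers at levels above the bnst, with Pcp4, Cacng5 and Prox1 as exceptions among those named.

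**Figure D3:**
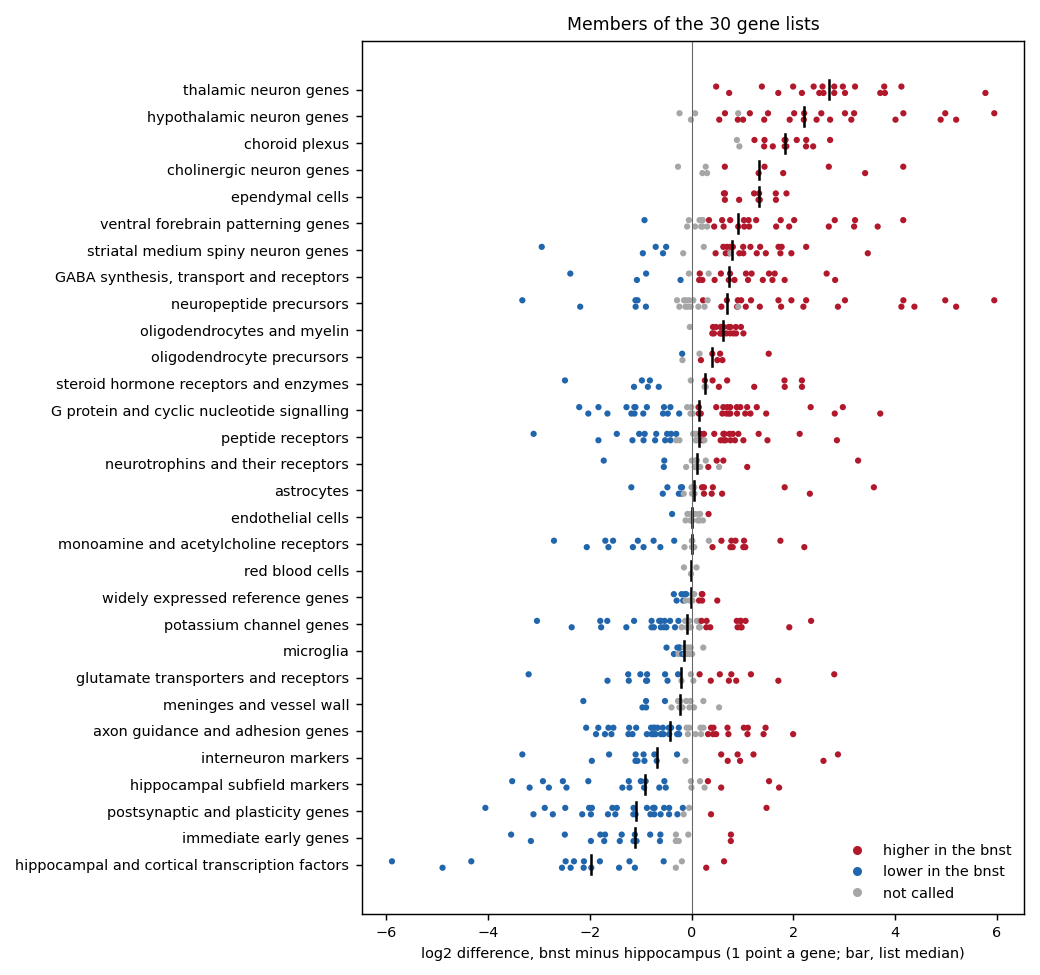
Log2 difference between the bnst and the hippocampus for each tested member of the 30 lists (x axis, 1 point a gene, with a bar at the list median), ordered by median and coloured by the call. The medians run from -1.97 for hippocampal and cortical transcription factors to 2.70 for thalamic neuron genes.

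Genes of excitatory and inhibitory transmission divided by isoform. Slc17a7, the vesicular glutamate transporter of cortical neurons, was at 979 to 2379 (median 1622) in the hippocampus and 63.3 to 490.0 (median 195) in the bnst. Slc17a6, its counterpart in thalamic and hypothalamic neurons, was at 1293 to 1887 (median 1516) in the bnst and 182 to 289 (median 213) in the hippocampus. Neither gene had overlapping groups, and their log2 differences were -3.20 ± 0.21 and 2.80 ± 0.07. Of 23 glutamate transporters and receptors 9 were higher and 11 lower in the bnst. The AMPA receptor subunits Gria1, Gria2 and Gria3 were lower by 0.87 to 1.25 on the log2 scale, and Gria4 was higher by 0.73. Among NMDA receptor subunits Grin2a was lower, at -1.65, Grin2d and Grin3a were higher, at 1.17 and 0.55, and Grin2b was not called, at -0.20.

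For GABA, 18 of 24 genes of synthesis, transport and reception were higher in the bnst and 4 were lower. Gad2, one of the enzymes that make GABA, had signals of 1229 to 1864 (median 1366) in the bnst and of 315 to 602 (median 479.8) in the hippocampus, a log2 difference of 1.63 ± 0.08. Gad1, the other, differed less, by 0.45 ± 0.05, though its groups did not overlap. Slc32a1, which loads GABA into vesicles, was higher by 1.52 ± 0.06. The receptor subunit Gabra5 went the other way, with 710 to 1016 (median 789) in the hippocampus and 81.0 to 214 (median 157) in the bnst and a log2 difference of -2.38 ± 0.10. The glycine receptor subunits Glra2 and Glra3 were higher in the bnst by 2.65 ± 0.10 and 2.82 ± 0.15.

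Postsynaptic and plasticity genes were mostly lower in the bnst, 27 of 31, with a median of -1.10. Ddn, which encodes the postsynaptic protein dendrin, was at 3634 to 4422 (median 3963) in the hippocampus and 183 to 875 (median 437) in the bnst, a log2 difference of -3.11 ± 0.14. Camk2a, the alpha subunit of the calcium/calmodulin kinase of excitatory synapses, was lower by 1.64 on the log2 scale, whereas the delta subunit gene Camk2d was higher, at 1.47 ± 0.08. Nrgn, which binds calmodulin in spines, had -2.73 ± 0.13. Kalrn, an exchange factor of spines, had -2.89 ± 0.05, but of its 8 probe sets 6 were called lower and 1 higher. Bdnf, a neurotrophin, had signals of 133 to 203 (median 167) in the hippocampus and of 35.1 to 68.8 (median 55.1) in the bnst. It differed by -1.73 ± 0.09, and Ret, the receptor of the GDNF family, by 3.27 ± 0.16.

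Of 21 immediate early genes, which are switched on within minutes of neuronal activity, 15 were lower and 2 higher in the bnst, with a median of -1.11. Nr4a2 and Nr4a3, orphan nuclear receptors, showed the largest differences. Nr4a3 was at 541 to 802 (median 686) in the hippocampus and 50.5 to 114 (median 79.5) in the bnst, with no overlap and a log2 difference of -3.16 ± 0.10. Egr3 and Junb, transcription factors, differed by -2.49 ± 0.15 and -1.79 ± 0.10. Fos, the classic member of the group, lay at 195 to 544 (median 242) in the bnst and at 64.4 to 463 (median 155) in the hippocampus. Its groups overlapped, it was higher in the bnst in 5 of 6 strains, and its log2 difference was 0.77 ± 0.20 (adjusted p = 0.00359). With only the bnst pools of 3 mice Fos was not called, at 0.71 (adjusted p = 0.0735). Dusp1, a phosphatase of MAP kinases, was also higher, at 0.77 ± 0.13.

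Many immediate early genes are known to be induced through cyclic AMP response elements, whose core is TGACG. In the RefSeq promoter sequences of mouse build GRCm38.p6, the 250 bases before the gene start held TGACG or its reverse complement CGTCA in 4827 of 27025 genes (17.9%, any overlap allowed) and in 12 of the 17 immediate early genes with an entry (70.6%). Of the 12 such genes that were lower in the bnst 8 held it. The promoters of Nr4a2 and Nr4a3, the members lowest in the bnst, and of Fos, a member that was higher, are given with these letters in capitals to show that the motif is in both kinds. They are chr2:57124004-57124253 on the minus strand, chr4:48045055-48045304 on the plus strand and chr12:85473640-85473889 on the plus strand, each from 5′ to 3′ of the gene.
Nr4a2: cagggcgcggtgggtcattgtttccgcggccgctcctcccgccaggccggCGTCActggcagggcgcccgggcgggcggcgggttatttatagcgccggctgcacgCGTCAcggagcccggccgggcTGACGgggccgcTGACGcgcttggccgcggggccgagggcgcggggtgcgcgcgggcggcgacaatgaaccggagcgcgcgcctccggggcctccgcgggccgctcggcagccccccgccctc
Nr4a3: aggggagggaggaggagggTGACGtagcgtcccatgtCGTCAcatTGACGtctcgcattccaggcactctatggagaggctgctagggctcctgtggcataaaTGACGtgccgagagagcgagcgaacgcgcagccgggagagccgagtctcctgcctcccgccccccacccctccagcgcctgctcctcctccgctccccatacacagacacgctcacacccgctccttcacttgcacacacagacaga
Fos: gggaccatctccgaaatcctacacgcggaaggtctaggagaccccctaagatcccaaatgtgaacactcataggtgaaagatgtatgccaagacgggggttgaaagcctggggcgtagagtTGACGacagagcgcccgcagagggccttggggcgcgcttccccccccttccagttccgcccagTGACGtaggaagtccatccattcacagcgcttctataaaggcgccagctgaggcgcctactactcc
The motif occurred 4 times in the Nr4a2 window, 4 times in that of Nr4a3 and 2 times in that of Fos. Of the 36 neuropeptide precursors with an entry, 15 (41.7%) held it. Among genes called above 2-fold, 17.2% of the promoters higher and 20.1% of those lower in the bnst held it, close to the share of all promoters. A match is a run of letters and not a measured binding site.

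Of 41 neuropeptide precursors 22 were higher and 6 lower in the bnst. Besides the precursors already described, Crh, which encodes the stress peptide corticotropin-releasing hormone, lay at 101 to 281 (median 127) in the bnst and at 18.7 to 42.4 (median 35.4) in the hippocampus. It differed by 2.20 ± 0.16 without overlap, and its mean in the hypothalamus was 60.4. Tac1 and Tac2, the tachykinin precursors, were higher by 2.25 ± 0.10 and 2.88 ± 0.13, Penk, the enkephalin precursor, by 1.96 ± 0.16, and Nts, the neurotensin precursor, by 1.71 ± 0.16. Of 19 markers of interneurons, some of them peptide precursors, 7 were higher and 11 lower in the bnst, with a median of -0.69. Calb2 and Pvalb, calcium-binding proteins, were higher, at 2.59 ± 0.12 and 1.22 ± 0.08. Vip, vasoactive intestinal peptide, was at 223 to 417 (median 336) in the hippocampus and 14.3 to 84.0 (median 30.2) in the bnst, a log2 difference of -3.33 ± 0.19. Npy, neuropeptide Y, and Cck, cholecystokinin, differed by -1.06 ± 0.08 and -1.10 ± 0.07, and Sst, somatostatin, was not called, at -0.12 ± 0.07 (adjusted p = 0.232).

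Receptors for these peptides moved in both directions, 19 of 42 higher and 14 lower in the bnst. Sstr4, a somatostatin receptor, was at 649.8 or above on every hippocampus array and at 176 or below on every bnst array, a log2 difference of -3.10 ± 0.12. Calcr, the calcitonin receptor, was higher in the bnst by 2.86 ± 0.14 and Cckar, a cholecystokinin receptor, by 2.12 ± 0.13. The receptors of Crh divided, with Crhr1 lower at -0.30 ± 0.09 and Crhr2 higher at 0.62 ± 0.19. Neither was called with only the bnst pools of 3 mice (adjusted p = 0.0854 and 0.0683) or within any single strain. Oxtr, the oxytocin receptor, was lower by 0.52 on the log2 scale.

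Among 18 steroid hormone receptors and enzymes 9 were higher and 6 lower in the bnst. Esr1, estrogen receptor alpha, had signals of 51.8 to 162 (median 92.7) in the bnst and of 7.46 to 30.2 (median 19.9) in the hippocampus, a log2 difference of 2.17 ± 0.17. Nr3c2, the mineralocorticoid receptor, was at 532 to 712 (median 653) in the hippocampus and 94.0 to 130 (median 115) in the bnst, a log2 difference of -2.49 ± 0.06. The glucocorticoid receptor gene Nr3c1 had overlapping groups and a difference of 0.26 ± 0.06. For amine and acetylcholine receptors the counts were even, 11 higher and 11 lower of 28. Chrm1, a muscarinic receptor, was lower by 2.70 on the log2 scale and Htr1a, a serotonin receptor, by 1.63, whereas the nicotinic subunit gene Chrna4 was higher at 2.21 ± 0.10 and Htr2c, another serotonin receptor, at 1.03 ± 0.06.

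Transcription factors of the ventral forebrain were higher in the bnst in 21 of 31 cases and lower in 1, Dlx6os1, an antisense transcript, named here as in the platform annotation. Zic1, a zinc finger factor of the septum and thalamus, was at 1201 to 2111 (median 1443) in the bnst and 71.9 to 223 (median 121) in the hippocampus, a log2 difference of 3.66 ± 0.10. Zfhx3, a homeobox factor, was higher by 3.21 ± 0.06, Six3 by 2.81 ± 0.13 and Lhx8, which specifies cholinergic neurons, by 2.70 ± 0.15. Dlx1 and Dlx2, which specify GABAergic neurons, were higher by 1.04 ± 0.09 and 1.12 ± 0.12. Of 11 genes of cholinergic neurons 7 were higher, but the defining Chat, which makes acetylcholine, was not called, at -0.27 ± 0.22 (adjusted p = 0.418), and its signals lay at or below 56.7 on every array of both regions.

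Potassium channels, guidance molecules and G protein signalling were mixed. Of 43 potassium channel genes 13 were higher and 19 lower in the bnst, from Kcnv1 at -3.04 ± 0.16 to Kcna5 at 2.35 ± 0.11. Of 48 axon guidance and adhesion genes 28 were lower, among them 5 of the Epha receptors, led by Epha7 at -2.07 ± 0.08, and 13 were higher, led by Ntng1, a netrin relative of thalamic axons, at 2.00 ± 0.09. Of 44 G protein and cyclic nucleotide genes 23 were higher and 16 lower, from Pde1a, a calcium-activated phosphodiesterase, at -2.21 ± 0.10 to Rgs16, a brake on G protein signals, at 3.71 ± 0.17. Neurotrophins and their receptors gave 5 higher and 3 lower of 19.

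Marker lists of neighbouring regions, also chosen with earlier results of these data known, were higher in the bnst as well. All 20 tested genes of thalamic neurons were higher in the bnst, with a median log2 difference of 2.70, and the mean log2 signal of the list was 8.68 to 9.61 on the bnst arrays and 6.12 to 6.52 on the hippocampus arrays. Tcf7l2, a transcription factor of thalamic neurons, had signals of 519.8 to 905 (median 658) in the bnst and of 36.2 to 67.9 (median 46.5) in the hippocampus, and differed by 3.79 ± 0.09. Prkcd, a protein kinase C of thalamic relay neurons that is also found in the bnst, was higher by 2.97 ± 0.14. Of 27 genes of hypothalamic neurons 23 were higher and none lower (0 at an unadjusted p under 0.05 by limma), with a median of 2.21 and mean log2 signals of 7.68 to 8.40 in the bnst and 5.59 to 6.09 in the hippocampus. This list holds Pmch and Hcrt, which are made in the lateral hypothalamus. For Hcrt the lowest bnst signal was 342, on a DBA/2J array, and the highest 1702, on an A/J array.

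Medium spiny neurons, the main cells of the striatum, gave 20 higher and 5 lower of 28 genes, with a median of 0.79. Drd1 and Drd2, the dopamine receptors that divide these cells, were higher in the bnst by 1.02 ± 0.20 and 1.75 ± 0.16, in both cases with overlapping groups. Bcl11b, a zinc finger factor of striatal and hippocampal neurons, was lower, at -2.95 ± 0.18. Over the 13 bnst arrays the thalamic and hypothalamic lists had a Pearson r of -0.59 and a Spearman rho of -0.30 (permutation p = 0.0413 and 0.311, or 0.248 and 0.915 adjusted over 6 pairs of lists). The permutations exchanged the 13 arrays freely and did not take account of strain, so these p values ignore that arrays of 1 strain belong together. After adjustment no relation between the 2 lists was shown. Without the 2 arrays farthest from the median of the thalamic list, C3H/HeJ bnst replicates 2 and 3, r was 0.10, so that its value rests on those arrays. After the strain means were removed r was -0.90, but this value includes the same 2 arrays and was not tested. The part of neighbouring tissue in the values of the leading genes was not tested.

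**Figure D4:**
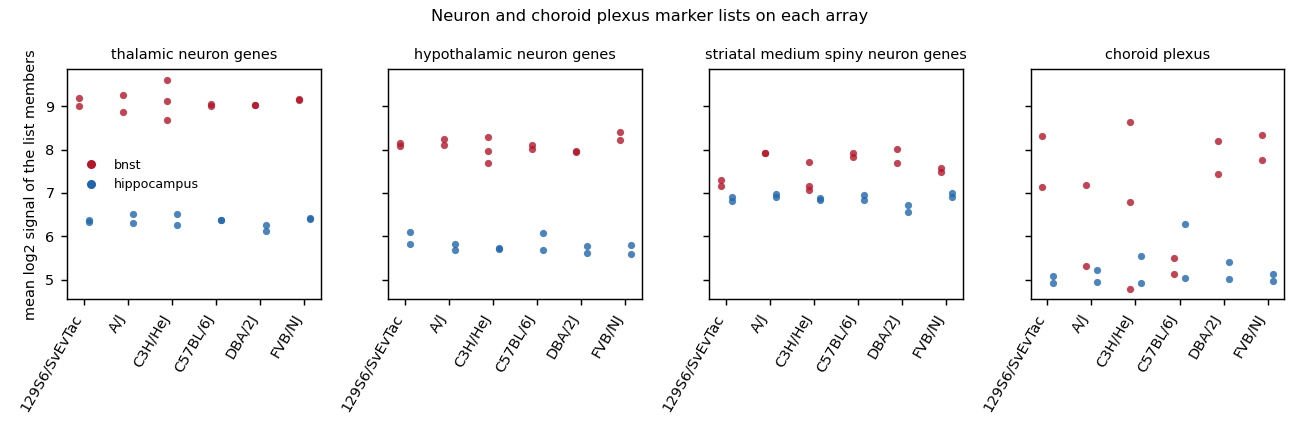
Mean log2 signal of the members of 4 marker lists (y axis) on each bnst and hippocampus array, by strain (x axis, 1 point an array). The thalamic and hypothalamic lists separate the regions in every strain, whereas the choroid plexus list runs from 4.79 to 8.63 among the bnst arrays and does not separate them in C57BL/6J or C3H/HeJ.

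Of 16 marker lists, that of the choroid plexus varied most in its mean between bnst arrays. In the whole set 13 of 15 were higher in the bnst with a median of 1.83, but only 4 of those 13 were higher in all 6 strains. The list mean ranged from 4.79 to 8.63 on the bnst arrays and from 4.91 to 6.29 on the hippocampus arrays, and in C3H/HeJ the bnst arrays spanned the whole range. The median log2 difference over the list was 3.35 in FVB/NJ, 2.70 in 129S6/SvEvTac and 2.57 in DBA/2J, 1.61 in C3H/HeJ and 1.37 in A/J, and -0.46 in C57BL/6J. In C57BL/6J the list mean was 5.12 and 5.50 on the bnst arrays. On its hippocampus arrays it was 5.03 for replicate 1 and 6.29, the highest of that region, for replicate 2. The interaction with strain was called for 0 of the 15 genes (4 at an unadjusted p under 0.05 by limma, lowest adjusted p = 0.242). Ttr, the thyroid hormone carrier that choroid plexus makes in bulk, lay at 121 to 8514 in the bnst and at 607 to 6055 in the hippocampus and was not called (adjusted p = 0.26), but it was called without C3H/HeJ bnst replicate 3, at 1.24 (adjusted p = 0.0192). Cldn2, a tight junction protein of this epithelium, was called at 2.25 ± 0.45 but differed by -0.44 in C57BL/6J. Otx2, a homeobox factor of choroid plexus and thalamus, was the largest, at 2.72 ± 0.26, with no overlap between groups.

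The cells that line the ventricles went the same way, with 11 of 11 ependymal genes higher in the bnst and a median of 1.32, led by Tmem212 at 1.86 ± 0.15. Of 20 oligodendrocyte and myelin genes 19 were higher with a median of 0.62, from Sox10 at 0.41 to Gjb1 at 1.02. Within C57BL/6J only 3 of the 20 were called higher, with a median of 0.36. In the other strains 13 (FVB/NJ) to 18 (DBA/2J) were called, with medians of 0.56 to 1.02. The mean log2 signal of the list was 9.32 and 9.15 on the C57BL/6J hippocampus arrays and 8.58 to 8.92 on those of the other strains. Mbp, the main myelin basic protein gene, was not called by its brightest probe set, at -0.03 ± 0.05, and of its 8 probe sets 4 were called higher and 1 lower. Among 9 genes of oligodendrocyte precursors 6 were higher and 1 lower, and Lhfpl3 differed most, at 1.52 ± 0.06. Astrocyte genes divided into 9 higher and 7 lower of 21. Agt, angiotensinogen, was at 588 to 1043 (median 803) in the bnst and 21.8 to 106 (median 78.2) in the hippocampus, a log2 difference of 3.58 ± 0.15. Gfap, the intermediate filament of fibrous astrocytes, was lower, at -1.18 ± 0.13, with overlapping groups.

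Lists of microglia, vessels, meninges and blood were compared as well. Of 17 microglial genes 6 were lower and none higher in the bnst (0 at an unadjusted p under 0.05 by limma), with a median of -0.15. P2ry12, a purine receptor of resting microglia, differed most, at -0.49 ± 0.05. Only 2 of the called microglial genes had 1 sign in all 6 strains. In DBA/2J the list median was 0.14, with 12 of 17 differences positive, whereas it was negative in the other strains. Endothelial genes gave 1 higher, 1 lower and 13 not called of 15, and 2 or 3 were higher without 129S6/SvEvTac bnst replicate 2 (2), C3H/HeJ bnst replicate 3 (2) or 129S6/SvEvTac hippocampus replicate 1 (3). Of 16 genes of meninges and vessel wall 5 were lower and 0 higher (0 at an unadjusted p under 0.05), led by Dcn, the matrix proteoglycan decorin, at -2.13 ± 0.16. None of 3 red blood cell genes was called by limma (0 at an unadjusted p under 0.05), and without A/J bnst replicate 2 it was 1, lower in the bnst. Among 16 widely expressed reference genes 5 were higher and 6 lower, and their differences ran from -0.35 for Actb to 0.50 for Gusb.

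The 6 strains were then compared, since a difference that is seen in each strain does not rest on 1 genetic background. The sign of the difference of strain means was the same in all 6 strains for 29.0% of all probe sets, for 78.4% of the called probe sets, and for 97.0% of those called above 2-fold. The calls and the signs come from the same arrays, and a large difference over all strains favours equal signs. The rise of these shares is thus largely set by the selection and is not separate support. As shares of all probe sets, 6183 (14.4%) were called and higher in the bnst in every strain and 5250 (12.3%) called and lower. The differences within strains were tested in a fit of all arrays that shared its error estimate between strains. Within a strain 2408 to 3334 probe sets were called higher and 2556 to 3567 lower in the bnst. Strain by strain, DBA/2J had 7.79% higher and 8.33% lower, FVB/NJ 7.68% and 7.6%, C3H/HeJ 7.56% and 7.27%, A/J 6.54% and 6.86%, 129S6/SvEvTac 6.89% and 6.37%, and C57BL/6J 5.63% and 5.97%. A total of 1033 (2.41%) were called higher and 1326 (3.1%) lower in each of the 6. Of the 60 probe sets called above 2-fold without 1 direction in all strains, 33 were higher in the bnst. For 20 of these 33, C57BL/6J was the strain that went against the rest, and 11 of the 33 belonged to choroid plexus genes. The interaction of strain and region was called for 2 of the 33 and for 0 of these 20 (7 at an unadjusted p under 0.05 by limma), so that a difference of C57BL/6J from the other strains was not shown for them. Among the 27 that were lower in the bnst, 13 were not lower in 129S6/SvEvTac.

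The interaction of strain and region, which tests whether the regional difference itself differs between strains, was called for 177 probe sets (0.414%). This count depended on single arrays and moved by over 1.5 times for 14 of the 25. It rose to 1047 without A/J bnst replicate 1 and to 274 without replicate 2, to 491 and 304 without A/J hippocampus replicates 1 and 2, to 503 without C3H/HeJ hippocampus replicate 1 and to 322 without FVB/NJ bnst replicate 1. It dropped to 77 and 103 without 129S6/SvEvTac bnst replicates 1 and 2, to 57 without 129S6/SvEvTac hippocampus replicate 1, to 105 without C57BL/6J hippocampus replicate 2, to 106 without either DBA/2J bnst replicate, and to 98 and 103 without DBA/2J hippocampus replicates 1 and 2. In 50 (0.284%) of 17583 genes the difference was called in opposite directions in 2 strains. Lefty1, an inhibitor of Nodal signalling, was lower in the bnst of 5 strains and not called in A/J. On the hippocampus arrays of A/J it gave 3.77 and 5.36, under the floor, and in the other 5 strains 135 to 236. In the bnst all 13 arrays lay between 3.09 and 18.6. The log2 difference was 0.13 in A/J and -3.31 to -3.70 in the other strains (adjusted p of the interaction = 0.000786), and without A/J the interaction was not called (adjusted p = 0.899).

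Endou, an endoribonuclease, showed the reverse arrangement, with a signal that varied by strain in the bnst. Its bnst arrays gave 128 to 187 in 129S6/SvEvTac, C57BL/6J and FVB/NJ and 2.35 to 33.7 in A/J, C3H/HeJ and DBA/2J, while no hippocampus array exceeded 26.8. The log2 difference was 3.40 to 3.60 in the former strains and -0.76 to 0.97 in the latter (adjusted p of the interaction = 0.000881). Rec8, a meiotic cohesin, was above the floor on both bnst arrays of C57BL/6J, at 42.8 and 44.1, and on no other bnst array, and the hippocampus arrays of C57BL/6J gave 11.8 and 14.8. Without C57BL/6J the interaction of Rec8 was not called (adjusted p = 0.967). Prune2 was higher in the bnst of A/J by 1.19 on the log2 scale, with 561 and 440.2 in the bnst and 228 and 210 in the hippocampus, but by only 0.09 in 129S6/SvEvTac (adjusted p of the interaction = 0.00466, and 0.0573 without DBA/2J).

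Rbfox2, Camta1, Cxcl12 and Snhg14 were each called in opposite directions in 2 strains, each by its brightest probe set. These genes have 4, 4, 3 and 3 probe sets, and the strain pattern of the others was not examined. The study raises that sequence differences between strains under the probes could alter hybridization, and this was not tested here for any gene. Rbfox2, a splicing regulator of neurons, was higher in the bnst of 129S6/SvEvTac, with 409 and 400.3 against 273 and 287 in the hippocampus, and lower in that of DBA/2J, with 281 and 267 against 466 and 489, and without 129S6/SvEvTac its interaction was not called (adjusted p = 0.256). Camta1, a calcium-responsive transcription activator, followed the same pair of strains, at 0.44 in 129S6/SvEvTac and -0.37 in DBA/2J, but its interaction was not called without 129S6/SvEvTac bnst replicate 2 (adjusted p = 0.0523) or hippocampus replicate 1 (adjusted p = 0.072). Cxcl12, a chemokine, was higher in the bnst of DBA/2J by 0.85 and lower in that of C57BL/6J, at -0.31, and its interaction was not called in the fit of all 61 arrays (adjusted p = 0.151) or without DBA/2J (adjusted p = 0.531). Snhg14, a long transcript of the imprinted Prader-Willi region, was at 17.0 and 21.3 in the bnst and 51.4 and 52.0 in the hippocampus of DBA/2J, and at 486 or more on every array of the other strains. Its interaction was not called with the floor at the 40th percentile (adjusted p = 0.0655) or without DBA/2J (adjusted p = 0.882). Foxp1, a forkhead factor, had 1 sign in all 6 strains, and was lower in the bnst by 1.06 in 129S6/SvEvTac and by 0.96 in C3H/HeJ on the log2 scale, and differed by -0.04 in A/J.

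**Figure D5:**
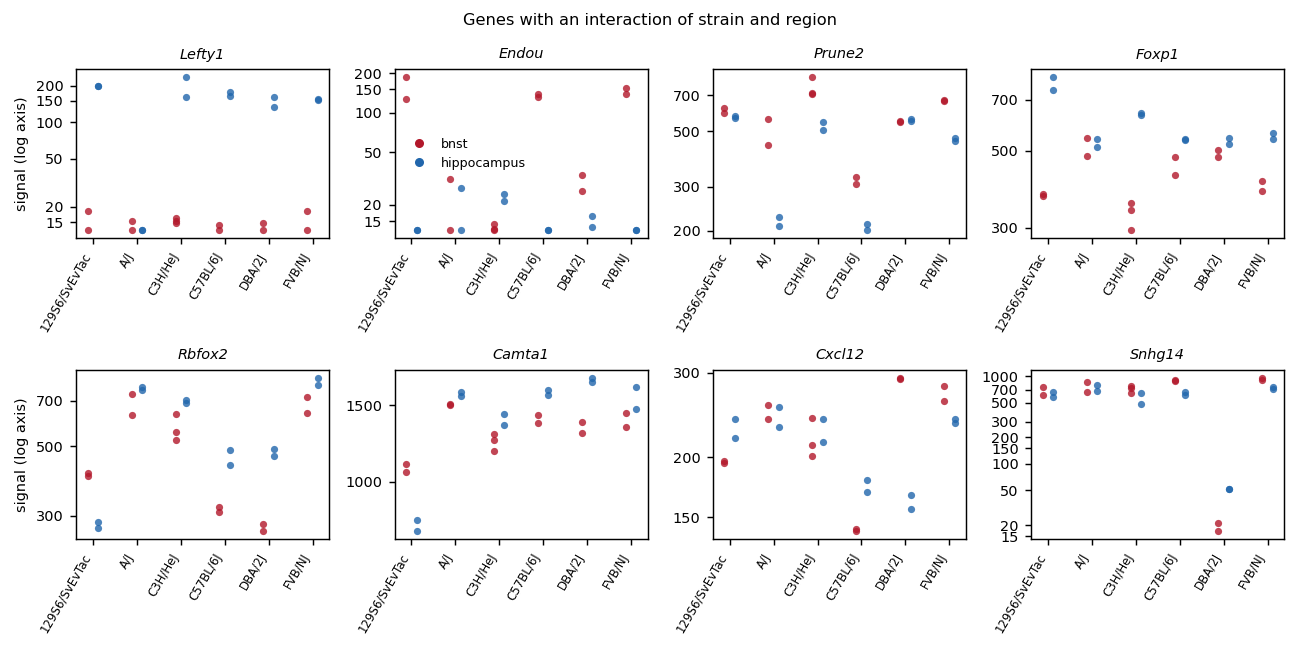
Signal on each bnst and hippocampus array (log axis, values under the floor drawn at it) by strain for 8 genes with an interaction of strain and region. Lefty1 is at the floor in the hippocampus of A/J alone, Endou is high in the bnst of 3 strains, and Rbfox2 and Camta1 change order between 129S6/SvEvTac and DBA/2J.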

How the data were processed

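The authors hybridized RNA of each dissection to Affymetrix mouse genome 430 2.0 arrays and deposited 1 signal per probe set, an intensity on a linear scale from the TeraGenomics absolute analysis, scaled and background corrected; its version and scaling target are not given in the sources used here. Of the values on the 25 arrays 5.29% were below 0. No counts or detection calls were used; precision is set by how many arrays there are.

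The 64 control probe sets were left out. Signals below 12.8, the 20th percentile over all 61 arrays, were raised to that floor, and log2 of the result was fitted in limma 3.58.1 (R 4.3.3, eBayes with a trend) on region with strain as a block, over the 42803 of 45037 probe sets above the floor on any of the 25 arrays. The fit left 18 residual degrees of freedom, with a median prior of 3.20. Tests were two-sided, with Benjamini-Hochberg adjustment over all probe sets. A second fit with 12 group means (13 residual degrees of freedom) gave the differences within strains and the F test of the interaction. Both fits were tested on simulated data. Replicates are separate animals or pools.

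Gene names come from the platform annotation given by GEO: 34945 probe sets name 1 gene, 932 several and 9160 none, and no probe set that names several was named. A gene is given by its probe set with the highest mean signal. The 30 lists hold 721 genes, of which 71 had no probe set of their own. Members and lists were chosen with earlier results of these data known. The genes named are the 15 in either direction that differ most among those called with 1 sign in all 6 strains, the 4 list members with the largest absolute difference, the 2 brightest markers of each cell type, the 10 genes with the smallest interaction p, and 5 of those called in opposite directions in 2 strains; not all of them are described, and other list members are named where a description needs them, chosen after their values were seen. Correlations used 100000 permutations (scipy 1.17.1, two-sided). Promoters are from RefSeq, GRCm38.p6, the first entry of each gene. The alternatives are in the closing section.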

Additional observations from a re-analysis of the deposited data

Results flagged for a closer look

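The regional difference itself differed between strains for 14 of the genes named, by the limma F test of the 5 interaction terms. The adjusted p was 7.9e-05 for Rec8, 0.000786 for Lefty1, 0.000802 for Mndal, 0.000881 for Endou, 0.00125 for Foxp1, 0.00238 for Rbfox2, 0.00373 for Snhg14, 0.00405 for Cxcl12, 0.00466 for Krtap14, 0.00466 for Prune2, 0.00719 for Pgc and 0.00961 for Camta1. Among the list members named, the myelin genes Opalin and Aspa had adjusted p values of 0.0339 and 0.0369.

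Rec8, Mndal, Krtap14 and Pgc had signals near the floor of 12.8 in most groups, and their calls depended on how low values were treated. With a floor at the 10th percentile the adjusted p was 0.422 for Rec8, 0.119 for Mndal and 0.543 for Krtap14, and with log2 of the signal plus 16 it was 0.163 for Pgc. When each array was scaled to 1 median, Camta1 (0.452), Foxp1 (0.0994), Prune2 (0.326), Rbfox2 (0.116) and Snhg14 (0.0983) were no longer called. Lefty1 and Endou were called under each of these 3 settings.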

How the results depend on the processing

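Of 128 genes named for their regional difference, 120 kept direction and call under each of the 45 alternatives in which they were tested, and 13 were too faint to be tested with a mean signal of at least 100. Besides the losses given above, Crhr2 lost its call with bnst pools of 2 mice (adjusted p = 0.0531) and without C57BL/6J (0.0513), and Crhr1 without C3H/HeJ (0.0508). Fos lost its call in a regression on the deposited signal (0.0517). Sst was called without FVB/NJ (0.0457), and Ttr with pools of 3 (0.0116), in that regression (0.0489) and with the replicate block (0.015). In the replicate block the difference of Ttr was 1.24, the same as without C3H/HeJ bnst replicate 3. Chat changed sign with a 40th percentile floor (0.055) and with pools of 3 (0.13), and Mbp with quantile normalization (0.014), none of them called.

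Leaving out single arrays gave 7549 to 7910 probe sets higher and 6413 to 6953 lower. Scaling each array to 1 median gave 6477 and 6442. Pools of 2 and 3 mice, which leave fewer arrays, gave 6743 and 5749, and 5881 and 5213. With strain and replicate number together as the block (the replicate block) there were 7762 and 6539. In that fit C3H/HeJ bnst replicate 3 had no partner and carried no weight in the difference. Same-numbered arrays of the 2 regions correlated from -0.10 (C3H/HeJ) to 0.41 (A/J) in their deviations, and the labels name nothing that they share. In groups of 2 arrays the deviations mirror each other, so these values cannot show whether the numbers pair the samples. The main fit treated the arrays as unpaired.

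Requiring a mean signal of 100 leaves fewer genes to test. It left 562 probe sets over 2-fold higher, and called members fell to 1 higher for cortical transcription factors, 13 higher and 0 lower for ventral forebrain factors, 8 higher and 8 lower for peptide receptors, 5 higher for steroid genes, 5 lower for amine receptors, 4 higher for cholinergic and 6 for ependymal genes, and 0 lower for endothelial and 1 for meningeal genes. Pools of 3 gave 9 peptide receptors and 3 reference genes lower and 1 immediate early gene higher, which was also 1 in the regression. Microglial genes lower were 3 with pools of 2 and without 129S6/SvEvTac. Endothelial genes higher were 2 with the replicate block and without 129S6/SvEvTac (1 to 3 leaving out arrays), and 2 were lower without C57BL/6J. Meningeal genes higher were 1 in the fit of all 61 arrays and without C57BL/6J, and red blood cell genes lower were 1 without A/J or without both its replicate 2 arrays (0 to 1 leaving out arrays).

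The interaction count of 177 was 446 with a 40th percentile floor, 64 with arrays scaled to 1 median, 313 in the fit of all 61 arrays and 57 to 1047 leaving out arrays. Chosen after seeing the data, it was 410 without both A/J replicate 2 arrays, 41 without 129S6/SvEvTac, 332 without A/J, 294 without C3H/HeJ, 87 without C57BL/6J, 42 without DBA/2J and 111 without FVB/NJ. Where no cause is named, the cause was not tested. Signals near the floor limit what can be said of faint genes.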
